A study of Caenorhabditis elegans with 2 samples.

Results

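The egrh genes of Caenorhabditis elegans, egrh-1, egrh-2 and egrh-3, are 3 of the 19973 protein-coding genes of the Ensembl WBcel235 annotation, and they were examined for binding by another zinc finger protein, D2030.7. The genes were selected by name, with earlier peak signals from these same lists known, so the signals at the genes are given as a description and no test was made on them. For each gene all peaks were taken whose summit, the position of highest signal, lay in the gene or within 2 kb upstream of its 5′ end. The data came from ChIP-seq, in which DNA bound to the tagged protein is pulled down with an antibody, here against GFP, and sequenced. Whole young adults were used, with 2 biological replicates and 1 group. All worms were of strain RW12302, in which a CRISPR insertion, allele st12302, adds TY1, EGFP and 3xFLAG tags to D2030.7. They were collected at 62.5 hours, after bleaching and synchronisation as starved L1 larvae. There was no untagged or other comparison group, a control named in the labels was not analysed here, and whole animals do not show in which tissue a site was bound.

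EGR proteins take their name from early growth response, after the vertebrate transcription factor EGR1 (also called Zif268), which is made within minutes of a growth signal and needs no new protein synthesis to be induced. They bind a GC-rich DNA element through tandem C2H2 zinc fingers, small folds in which cysteines and histidines hold a zinc ion, and vertebrate EGR proteins are held in check by NAB cofactors. In C. elegans, egrh-1 is known to act in somatic cells to restrain oocyte maturation and ovulation, the step in which an arrested oocyte resumes meiosis and leaves the gonad.

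The label of the 3 genes as EGR-type was set beside the fingers in their translated coding sequences. Each held 3 C2H2 matches in tandem, in proteins of 461 residues for egrh-1, 294 for egrh-2 and 320 for egrh-3. Over the stretch that spans the fingers, egrh-1 and egrh-2 were identical at 70 of 79 aligned positions (88.6%). egrh-3 stood apart, with 45 of 81 positions identical to egrh-1 (55.6%) and 44 of 81 identical to egrh-2 (54.3%). D2030.7 itself has 428 residues and held 1 C2H2 match. The matches are to a sequence pattern, and DNA binding by these proteins was not measured. klf-1, a Krüppel-like factor gene, also held 3 matches in tandem. No Krüppel-like or vertebrate EGR protein was compared, so the matches alone do not settle the EGR-type label.

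The sequences that carry the result lie in the space between egrh-2 and its neighbour lep-2 on chromosome IV, and they are shown because both peaks at an egrh gene fell there. They were read from the RefSeq WBcel235 (ce11) genome and are written 5′ to 3′ on the plus strand. The first is the 300 bp window at the summit of the strong peak, chrIV:991166-991465, whose capitals mark the 69 bases that align to a copy on chromosome V. The copies at chrV:12207032-12207101 and chrIII:13429603-13429646 follow it. The next is the 25 bp unit of a tandem repeat that begins 70 bp beyond the summit. The last is chrIV:992101-992280, which holds the summit of the weaker peak, and its capitals mark the longest stretch found letter for letter elsewhere in the genome.
strong peak window: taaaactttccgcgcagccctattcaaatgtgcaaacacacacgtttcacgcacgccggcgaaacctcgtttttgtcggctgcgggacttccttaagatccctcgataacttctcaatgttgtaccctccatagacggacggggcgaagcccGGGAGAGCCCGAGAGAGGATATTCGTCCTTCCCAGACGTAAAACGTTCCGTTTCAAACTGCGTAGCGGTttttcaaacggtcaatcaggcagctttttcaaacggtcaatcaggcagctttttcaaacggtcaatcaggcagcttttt
copy on V: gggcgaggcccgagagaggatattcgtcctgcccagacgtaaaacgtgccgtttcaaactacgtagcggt
copy on III: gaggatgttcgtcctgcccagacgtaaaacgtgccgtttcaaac
repeat unit: tttttcaaacggtcaatcaggcagc
second peak window: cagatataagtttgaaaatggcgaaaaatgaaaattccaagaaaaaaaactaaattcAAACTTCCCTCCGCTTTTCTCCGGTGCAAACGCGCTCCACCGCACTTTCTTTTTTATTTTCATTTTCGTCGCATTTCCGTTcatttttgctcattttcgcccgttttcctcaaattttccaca

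Of the 3 genes only egrh-2 had a summit in the main set. The main set is the authors' conservative list of 2777 peaks past their threshold on the irreproducible discovery rate (IDR). The IDR is low for peaks that 2 inputs both rank high and rank alike. Over all protein-coding genes 2984 had a main-set summit, or 14.9%. egrh-2 was also the only one of the 3 with a summit in the thresholded list of replicate 1, where the share of all genes was 13.7%, and in that of replicate 2, where it was 10.1%. Because the genes were picked with these signals known, nothing is read from 1 in 3 against those shares.

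egrh-2 (WBGene00043705) lies on chromosome IV at 984384 to 990452 on the minus strand and spans 6069 bp. Its strongest summit stood at 991316, which is 864 bp upstream of its annotated 5′ end and 967 bp upstream of lep-2, the next gene. lep-2 runs the other way, on the plus strand, and encodes a Makorin-type protein of the heterochronic pathway that times the larval-to-adult change, known for its part in shaping the male tail tip. The summit was in no annotated gene. Its signal in the main set was 1078, rank 4 of 2777, against a median of 129.8 over all peaks and a highest value of 1268. The signal was 660.2 in replicate 1, rank 4 of 2464, and 377 in replicate 2, rank 11 of 1811. Both replicates therefore placed the site within their top peaks, with summits at 991313 and 991316, a distance of 3 bp. Signals come from the authors' peak caller and set no level between lists.

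The peak was wide. It covered 991092 to 991652, or 561 bp, where 74.7% of the main peaks had the median width of 336 bp and 7 were wider than this one. In each replicate the same interval was listed with a further summit on the lep-2 side, 205 bp away in replicate 1 and 199 bp away in replicate 2. That further summit had a signal of 62.2 in replicate 1 and 28.9 in replicate 2. The first summit was 10.6 times as high as the further one in replicate 1 and 13.0 times in replicate 2. The pooled list carried the interval with 1 summit.

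The weaker main-set peak covered 992023 to 992358, with its summit at 992191. It was 1739 bp upstream of egrh-2 and 92 bp upstream of the 5′ end of lep-2, so it counts for egrh-2 only through the width of the window. Its signal was 97.1, rank 1953, below the median of the main set, and its −log10 IDR of 2.53 stood just inside the authors' threshold of 2. Replicate 1 had the peak in its thresholded list, with a signal of 67.7 and its summit 5 bp from the main-set summit. Replicate 2 held only a candidate that overlapped 56.8% of the main-set peak, with its summit 117 bp away. That candidate had a signal of 35.9 and a −log10 IDR of 1.48, which is outside the threshold. The strong peak reached 5 on the same scale in all 3 lists. The weaker peak thus passed the threshold in 1 replicate of 2.

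**Figure D1:**
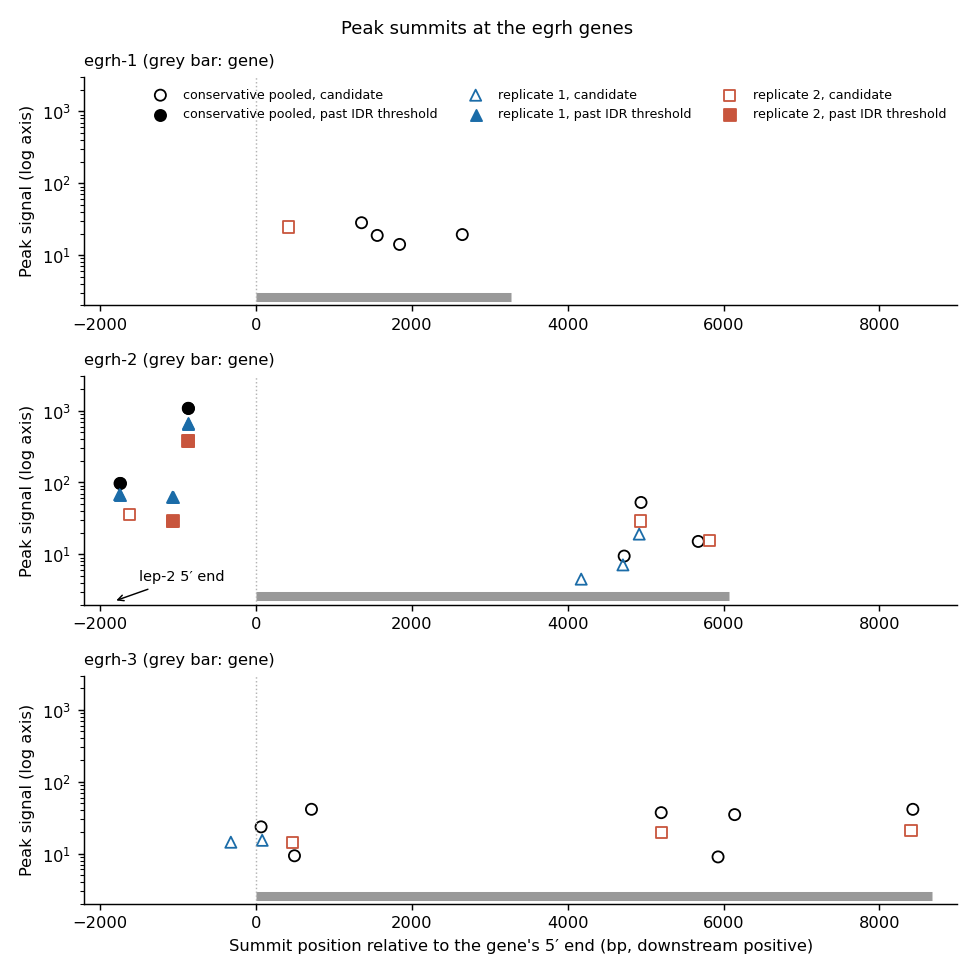
Summit position relative to each gene's 5′ end (bp, x axis) and peak signal (y axis, log scale) at egrh-1, egrh-2 and egrh-3. Filled symbols passed the authors' IDR threshold and open symbols did not, and the grey bar is the gene. The summit at 864 bp upstream of egrh-2 stands at 1078 in the conservative pooled list, 660.2 in replicate 1 and 377 in replicate 2, while egrh-1 and egrh-3 show open symbols alone. Signals are not on one scale between lists.

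Inside egrh-2 no summit passed the threshold. The candidate with the highest signal in the gene lay in an intron, 4942 bp downstream of the 5′ end, with a signal of 52.7 and a −log10 IDR of 0.42. Replicate 1 held a candidate near the same place at 19.1 and replicate 2 one at 29.1. It lies beside Y55F3AM.23, a small nucleolar RNA gene within egrh-2, and a weaker candidate of 9.47 fell on that gene. Just past the 3′ end of egrh-2, replicate 1 alone had a thresholded summit at 984173 with a signal of 46.3, in the 3′ UTR of plx-1, the plexin gene next to it.

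egrh-1 (WBGene00007772) lies on chromosome X at 14845937 to 14849217 on the plus strand. It had no summit past the threshold in any of the 4 thresholded lists. The nearest main-set summit was 41045 bp from its 5′ end, with a signal of 98.1. The upstream gene, dpf-2, ends 7745 bp before it, and no main-set summit lay in that space. In the ranked list of all candidates, where 75.2% of protein-coding genes have at least 1, egrh-1 had 4 candidates with signals of 28.3, 18.8, 14.1 and 19.3. They lay 1358 to 2650 bp downstream of the 5′ end, within the gene. Their highest −log10 IDR was 0.31. Replicate 1 had no candidate at egrh-1 and replicate 2 had 1, with a signal of 24.7. The strongest egrh-1 candidate exceeded those of 15.9% of the genes with a candidate, whose median was 44.2. In the other pooled ranked list egrh-1 had 5 candidates, and its strongest, of 41.5 at 347 bp downstream of the 5′ end, exceeded those of 42.3% of the genes.

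egrh-3 (WBGene00044651) lies on chromosome IV at 2680098 to 2688766 on the minus strand, and its upstream neighbour Y94H6A.5 ends 146 bp from it on the same strand. It too had no thresholded summit in any of the 4 lists. Its 7 candidates had signals between 8.98 and 41.3, and the best −log10 IDR among them was 0.55. That value belonged to a candidate of 41.2 in a coding exon, 8428 bp downstream of the 5′ end. The strongest, of 41.3, was 716 bp downstream of the 5′ end, in an intron. Its −log10 IDR was only 0.06, and the other pooled ranked list did not hold it. Replicate 1 held 2 candidates, of 15.3 and 14.4, and replicate 2 held 3, of 20.9, 19.4 and 14.4. The strongest egrh-3 candidate exceeded those of 43.8% of the genes with a candidate. Main-set summits stood at 12080 and 12290 bp downstream of its 5′ end, past its 3′ end at Y94H6A.3, with signals of 5.72 and 157. Another, of 87.7, stood 276 bp from the 5′ end of Y94H6A.5 and 15487 bp upstream of egrh-3.

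By strongest candidate in the conservative ranked list the order was egrh-2 at 1078, egrh-3 at 41.3 and egrh-1 at 28.3. The last pair do not separate. In the other pooled ranked list egrh-1 had 41.5 and egrh-3 had 41.2. In replicate 2 the order was egrh-1 at 24.7 and egrh-3 at 20.9, and in replicate 1 egrh-1 had no candidate while egrh-3 had 15.3. Longer genes offer more room for candidates. Per kb of gene and upstream window egrh-1 had 0.757, egrh-2 0.620 and egrh-3 0.656 candidates. The median was 0.917 over the genes with a candidate. Their median window was 4196 bp, shorter than the 5281, 8069 and 10669 bp of the 3 egrh genes. A short window enters that median only if it holds at least 1 candidate. The comparison therefore does not show that the egrh genes have few candidates for their length. Depth cannot be read from these lists, so a thresholded peak at egrh-1 or egrh-3 was not detected, which does not show that binding is absent.

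Among genes, egrh-2 and lep-2 shared rank 6 of 2984 by strongest main-set signal, because they share the summit. The gene rank of egrh-2 was 4 of 2740 in replicate 1 and 14 of 2026 in replicate 2. By the sum over the 2 replicates of the absolute difference in log2 signal, lep-2 was the gene most like egrh-2 among the 1803 genes with a summit in both replicates, with the same values, since the summit is the same. Leaving out lep-2 as a neighbour at the summit, the next were rpl-3, cpg-1 and cmtr-1. rpl-3, a ribosomal protein gene, had signals of 669 in replicate 1 and 394 in replicate 2 (sum 0.08). cpg-1, which encodes an eggshell proteoglycan, had 633 and 359 (sum 0.13). cmtr-1, a cap methyltransferase gene, had 609.9 and 392 (sum 0.17). The median gene was 4.78 away. The signal of egrh-2 in replicate 1 was 1.75 times that in replicate 2, against a median ratio of 1.44.

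**Figure D2:**
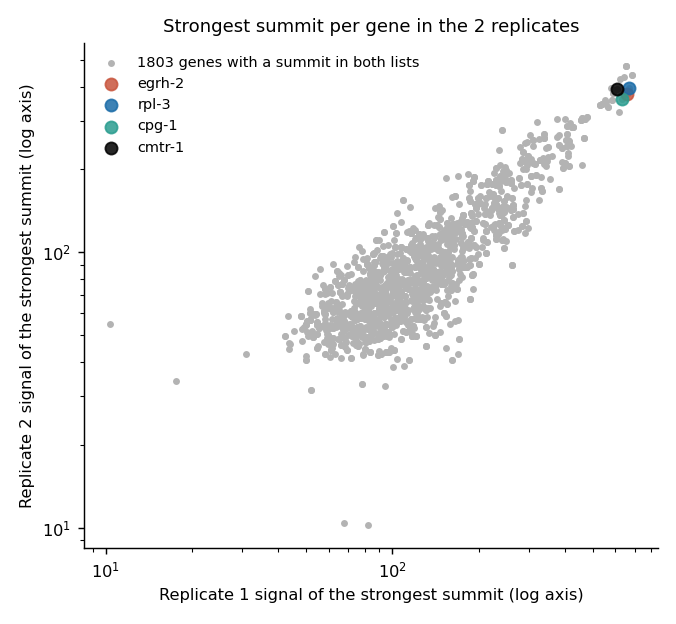
Signal of the strongest summit per gene in replicate 1 (x axis) and replicate 2 (y axis), both on log scales, for the 1803 genes with a summit in both lists. egrh-2 lies at 660.2 and 377, in the upper right group with rpl-3, cpg-1 and cmtr-1. The points share the same 2 libraries, and neighbouring genes share summits.

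egrh-2 and lep-2 are transcribed away from each other, with 1830 bp between their 5′ ends. Such head-to-head spaces numbered 4086 between protein-coding genes, and 721 (17.6%) held a main-set summit. By strongest signal the egrh-2 and lep-2 space ranked 2 of the 721, whose median was 151.5. It was also among the 72 (9.99%) that held at least 2 summits. It was wider than 65.6% of the spaces with a summit, whose median width was 870.0 bp. The strong summit lay 47.2% of the way across, counted from egrh-2, and so near the middle. Among the 341 spaces of at least 1000 bp that held a summit, the median distance of the strongest summit to the nearer 5′ end was 451 bp, and in 247 (72.4%) that distance was shorter than the 864 bp seen here. In 44 of the 341 (12.9%) the summit lay in the band from 40 to 60%. These data alone do not assign the strong summit to either gene.

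**Figure D3:**
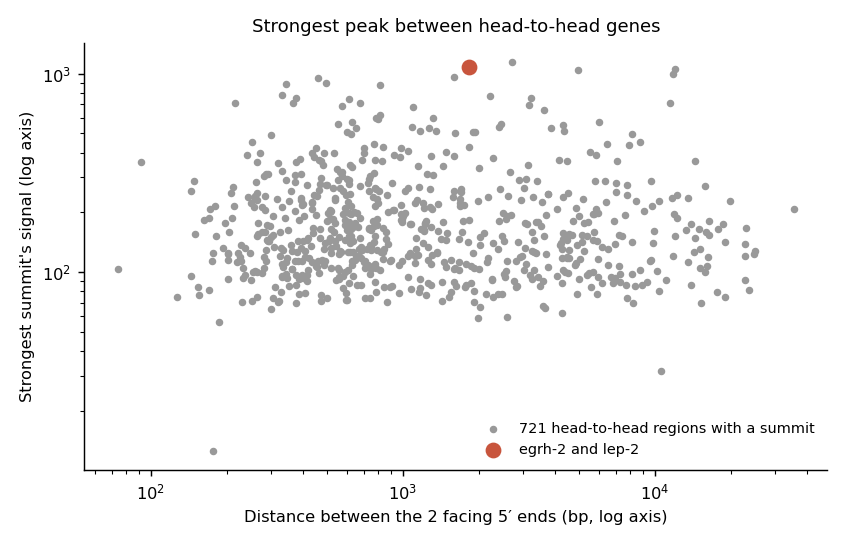
Width of the space between head-to-head protein-coding genes (bp, x axis, log scale) against the signal of its strongest main-set summit (y axis, log scale). Each grey point is 1 of the 721 spaces with a summit, and the red point is the 1830 bp space of egrh-2 and lep-2 at 1078, second in signal among them.

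The printed windows were searched on both strands for a few motifs of zinc finger and cell cycle factors. GAGAGAG was the single one found in the strong window, at 991328 to 991334 and 12 bp from the summit. It occurred in 8.35% of the 2777 summit windows of 300 bp and in 6.78% of the 19973 promoters of the same length. The EGR elements GCGTGGGCG and GCGNGGGCG, with the second including the first, were in 0.036% and 0.468% of summit windows and in 0.100% and 0.260% of promoters. The Sp/KLF element GGGCGGG was in 4.07% of windows and 2.11% of promoters. The E2F elements TTCCCGC and GCGCGAA were in 7.38% and 8.57% of windows and in 3.22% and 1.92% of promoters. These 5 were absent from the whole space between egrh-2 and lep-2, and all 6 were absent from the promoters of the 3 egrh genes. A match or its absence is a description of the letters. The strong window was GC-rich, at 50%, higher than 93.6% of summit windows, whose median was 38.3%. The median of promoters was lower, at 34.3%. The EGR, Sp/KLF and E2F elements are rich in G and C, and the part of base composition in their shares was not tested.

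The strong window held repeated sequence. The repeat unit printed above recurred 3.88 times over 97 bp, at 991386 to 991482, on the side of the summit where both replicates listed the further summit. The 69 capital bases, just beyond the summit, aligned over 70 columns at 92.9% identity to an intergenic site on chromosome V that had no main-set peak and no candidate. A 44 bp part aligned at 93.2% to an intron of bli-5, where a candidate of 27.5 stood, and a stretch of 100 bp at 86.0% to an intron of tin-44 with no peak. The longest exact match elsewhere was 26 bp. The weaker peak had a longer copy: 253 columns at 96.0%, at chrIV:9403799-9404049 on the minus strand, in an intron of F56D5.6 that overlaps an annotated pseudogene. That copy held no main-set peak and 2 candidates, the stronger at 43.5. Its longest exact match, the 81 capitals, means that reads wholly inside it cannot be told apart from those of the copy, and how the authors placed such reads is not given in the sources used here. Of the 2777 main-set windows, 1677 (60.4%) had a copy of at least 40 bp at 85% identity or more elsewhere. A copy of that shorter kind is thus common at these sites. No share was counted for copies as long as that of the weaker peak, and windows away from peaks were not searched. The part of repeated sequence in the signals was not tested.

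Related genes were counted by the same window. The lists were chosen with earlier results of these data known, so their shares are descriptions and no test was made on them. The list of EGR-like and Sp/KLF genes had 8 members and includes mab-10, which encodes the NAB cofactor of LIN-29 and is not itself a zinc finger gene of this kind. Of these 8, 3 had a main-set summit, lin-29, klf-1 and mab-10 (37.5%, exact 95% interval 8.52 to 75.5%), beside 14.9% of all protein-coding genes, with a median signal of 94.5 beside 143.8. lin-29, an EGR-related heterochronic factor, had 140.7, with a summit in its 3′ UTR nearer to the 5′ end of hmg-12. klf-1, a Krüppel-like factor gene, had 94.5 in an intron, nearest to the 5′ end of F56F11.2. mab-10 had 67.6 at 423 bp upstream, and neither replicate's own list held it. All 3 were below the median of genes with a summit and far below egrh-2, which shares its summit with lep-2.

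Of 56 other named C2H2 genes, 6 had a summit (10.7%, interval 4.03 to 21.9%), beside 14.9% of all genes, with a median of 96.3 beside 143.8. ztf-3, hinf-1, lin-13 and ztf-17 led with 180.7, 108.7, 97.9 and 94.7. The hinf-1 summit was nearer to the 5′ end of uev-1. Of all 242 genes whose protein held at least 1 C2H2 match, 47 had one (19.4%, interval 14.6 to 25%), beside 14.9% of all genes, with a median of 115.6 beside 143.8. That difference was not kept under 2 alternatives. In the list of replicate 2 alone 24 of the 242 had a summit (9.92%), beside 10.1% of all genes, and at an IDR of 0.001 it was 22 (9.09%), beside 9.82% of all genes. egrh-2 had the highest signal among them, at the summit it shares with lep-2. Next came cid-1, which encodes a poly(U) polymerase, at 711, sup-35 at 551 and oef-1, a germline factor gene, at 412. The cid-1 summit stood 1276 bp upstream of cid-1 and 74 bp from the 5′ end of K10D2.5, and the oef-1 summit, 13 bp upstream of oef-1, lay in an intron of pam-1. Of the 37 with exactly 3 matches, 5 had a summit (13.5%, beside 14.9% of all genes), and after egrh-2 came Y67H2A.10 at 121, klf-1 at 94.5 and zfr-1 at 94.4. Of the 16 with 3 matches in tandem, 2 had one (12.5%), egrh-2 and klf-1. egrh-1 and egrh-3 belong to this last list, without a summit.

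Genes of oocyte maturation and ovulation, the process in which egrh-1 is known to act, had a summit in 14 of 43 cases (32.6%, interval 19.1 to 48.5%), beside 14.9% of all protein-coding genes, with a median of 152.5 beside 143.8. The list was led by cyb-3, a cyclin B gene, at 295.7, by oma-2 and oma-1, which encode redundant RNA-binding proteins needed for oocyte maturation, at 269 and 261, and by inx-22, a gap junction gene of the oocyte, at 209. The inx-22 summit was nearer to the 5′ end of Y47G6A.25. Summits at these 4 genes lay 114 to 388 bp upstream of the 5′ end and were in the thresholded lists of both replicates. They have the highest signals, and not all of the 14 were in both lists or nearest to their own 5′ end. In the list of replicate 2 alone 11 of the 43 had a summit (25.6%), beside 10.1% of all genes. With each summit given only to the nearest 5′ end it was also 11 (25.6%), beside 10.1%. egrh-1 itself had none, as given above. Like the others, this list was chosen with earlier results of these data known. Its share and interval are therefore a description and no test.

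**Figure D4:**
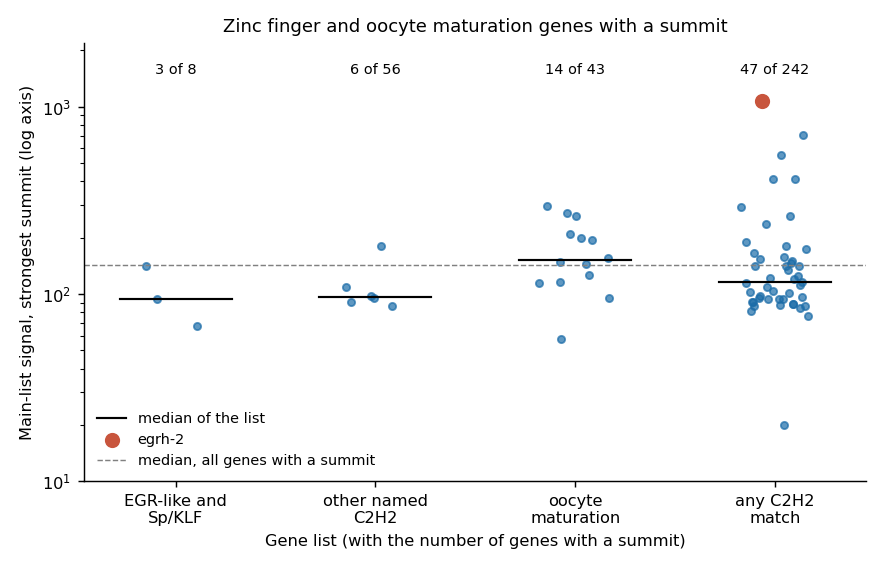
Main-set signal of the strongest summit (y axis, log scale) for the genes of 4 lists that had a summit, with the number of genes with a summit above each. Horizontal bars are list medians and the dashed line is the median of all genes with a summit, 143.8. egrh-2, in red, is the highest point of the C2H2 list at 1078, from the summit it shares with lep-2.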

How the data were processed

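The authors deposited 8 peak lists on ce11 (WBcel235), per the labels: for each of 2 replicates and for 2 pooled sets, a ranked and a thresholded list, derived from aligned reads and a control, per the descriptions deposited with the files. For the aligner and the peak caller the name is not given in the sources used here. Each peak's signal, and in ranked lists its −log10 IDR, are the authors' deposited values. The conservative pooled thresholded list was the main set. No file holds read counts, so depth is unknown and no signal has a counting error.

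Summits were matched to Ensembl release 115 genes with Python 3.11.15 and pandas 2.3.3, and a summit could count for several genes. Coordinates are 1-based. The matching was tested on simulated data. A few intervals with 2 summits (8 in the main set) were kept as listed. Intervals on shares are Clopper-Pearson at 95%, over genes, which are not replicates. Fingers were counted as C-X(2,4)-C-X(12)-H-X(3,5)-H in translated Ensembl coding sequences, in place of the RefSeq proteins first planned. mua-1 was not matched by symbol. Copies were searched with blastn 2.17.0 (E-value up to 0.001, word size 11), and this search was added after the data were seen. The genes and lists were chosen with earlier results of these data known. Named genes were the 3 egrh genes, genes at their main-set summits, the 3 most like egrh-2 other than those neighbours, and the 4 with the highest signal in each list. Alternatives were another peak list, each replicate's list, a stricter IDR, narrower windows, assignment of each summit to the nearest 5′ end, transcript starts, exclusion of summits at small RNA genes and reciprocal overlap.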

Additional observations from a re-analysis of the deposited data

How the results depend on the processing

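Of 100 recomputed values, 83 kept their value within the limits set (counts within 1.5 times), 17 moved and 0 reversed. egrh-1 and egrh-3 had 0 summits under every alternative run. Narrower windows, a stricter IDR, the nearest 5′ end, transcript starts and exclusion of small RNA genes can only take main-set summits away. A 0 was therefore fixed in advance under these alternatives, and such values are among the 83. With transcript starts each window lies inside that of its gene, and the share of all genes with a summit stayed at 14.9%. The values kept under transcript starts are therefore no separate check. The other pooled list and each replicate's list could have differed. With an IDR of 0.001 (1667 peaks, and 9.82% of all genes with a summit against 14.9%) egrh-2 kept 1 summit, as did 1 EGR-like or Sp/KLF gene, 1 other C2H2 gene, 22 genes with any C2H2 match, 2 with exactly 3 and 1 with 3 in tandem. With 1 kb upstream, or with each summit given only to the nearest 5′ end, egrh-2 had 1 summit. With 500 bp upstream (10.7% of all genes) it had 0, and so did all 3 egrh genes, while 2 genes with exactly 3 matches and 1 in tandem had one. Without replicate 1 (10.1% of all genes) or without replicate 2 (13.7%), the percentile of the strongest egrh-2 summit was 99.4 to 99.8, the EGR-like and Sp/KLF count 1 to 3, the count with any match 24 to 40, with exactly 3 matches 1 to 7 and in tandem 1 to 3. In each case the window, list or threshold differs by construction, and no further cause was tested. Reciprocal overlap of at least 50% left 2 egrh-2 peaks matched in replicate 1 and 1 in replicate 2. No paired analysis was possible because there is 1 group and no test. Unknown depth limits what a missing peak can show.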
